A study of Mus musculus with 12 samples.

Results

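The major urinary proteins are small lipocalins that the mouse liver secretes into the blood and that pass into the urine, where they bind and slowly release volatile pheromones. Males make far more of them than females, and the pulsed male pattern of growth hormone, acting through the growth hormone receptor, JAK2 and STAT5, is known to keep their genes active in hepatocytes. The genes lie in 1 large cluster on mouse chromosome 4, many of them so alike that short reads cannot be assigned to 1 gene with certainty. Mup3, Mup7, Mup10, Mup17, Mup20 and Mup21 were taken as the members described here, by their symbols in the deposited tables, and are 6 of 21 genes whose symbol is Mup followed by digits, among 51912 genes in all. The expected counts of all 21 were also added up (the Mup sum), since a sum depends less than a single gene on how reads were divided within the set. It still depends on reads given to genes outside the set, such as Mup22, described below. All 6 members, and 19 of the 21 genes, passed the filter on low counts.

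Liver RNA of 12 male mice was measured with a kit that reads the 3′ end of each messenger RNA, with 3 mice in each of 4 groups. The WT corn oil group consisted of wild-type mice given the vehicle. The WT CITCO group consisted of wild-type mice given CITCO, an agonist of the human constitutive androstane receptor (CAR). The hCAR/hPXR CITCO group carried human CAR and the human pregnane X receptor (PXR) in place of the mouse receptors, and the Car KO/hPXR CITCO group lacked Car and carried human PXR. CITCO was injected into the peritoneum each day for 4 days at 10 mg/kg, and livers were taken on day 5. All groups with altered receptors received CITCO, so that in any comparison of these groups with wild-type mice the genotype and its response to the drug cannot be told apart. The mouse genes for CAR (Nr1i3, 104 to 287 counts) and PXR (Nr1i2, 100 to 199 counts) were counted in the 6 wild-type livers, against at most 6 and 2 counts in the other 6. Cyp2b10, the classic CAR target, had 184 to 288 counts in the hCAR/hPXR CITCO livers and at most 6 elsewhere. The hepatocyte transcripts Alb, Apoa1 and Ttr were abundant in every library, Alb at 7650 to 20000 CPM (counts scaled by library size to a common total).

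The cluster runs from 59956804 to 62150863 on chromosome 4 of GRCm38, a span of 2.19 Mb, in which the GENCODE M21 annotation places 22 protein-coding Mup genes and 27 Mup pseudogenes. All members are read from the minus strand. Mup7 lies at chr4:60066469-60070475, Mup10 at chr4:60578260-60582199 and Mup17 at chr4:61591929-61595871. Mup20, which encodes the male pheromone darcin, lies at chr4:62050234-62054158, next to Mup3 at chr4:62083476-62087342 and Mup21 at chr4:62147932-62150863 at the far end. The last 300 bases of the longest coding transcript, the part from which this kit makes reads, separated the members into unlike sets. For Mup3, Mup20 and Mup21, each of the 201 windows of 100 bases in that stretch was found in no other Mup transcript, and for Mup17 this held for 187 windows. For Mup7 it held for 3 windows and for Mup10 for 0, and the last 300 bases of Mup10 were identical to those of Mup2. Mup21 was the most divergent, with 52.1% identity to its closest relative, Mup20. The expected counts of the Mup genes were not whole numbers in 98.3% of values above 0, against 13.7% for all other genes. A value that is not whole holds at least 1 divided read, and this was so for every value of Mup20 and Mup21 too, whose 3′ windows were all their own.

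**Figure D1:**
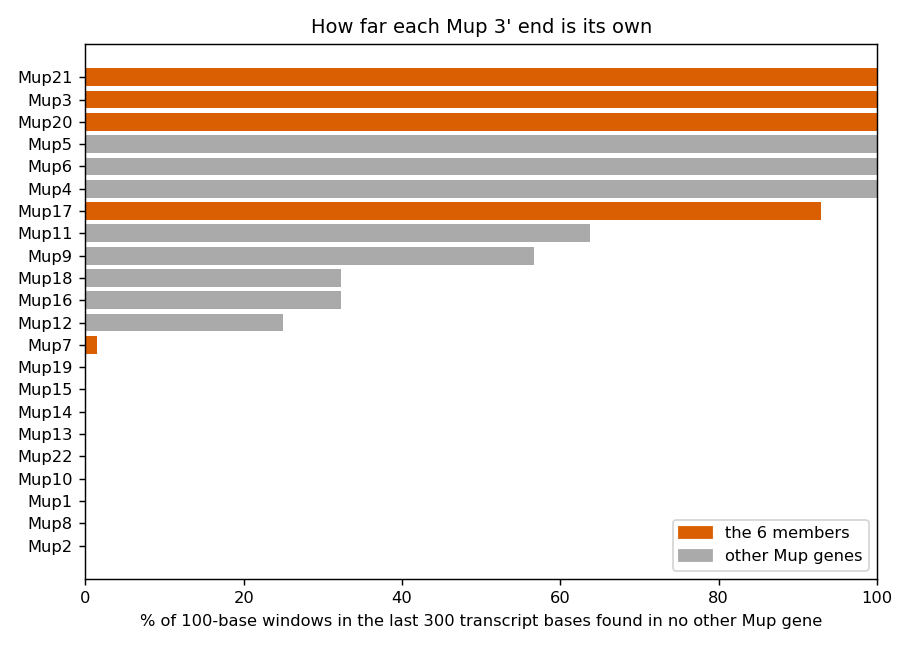
Bars give, for each of 22 Mup genes, the percentage of the 201 windows of 100 bases in the last 300 transcript bases that occur in no other Mup gene. Mup3, Mup20 and Mup21 stand at 100%, Mup17 at 93.0%, Mup7 at 1.49% and Mup10 at 0.

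The RefSeq promoter windows (300 bases around the annotated start, GRCm38.p6, 5′ to 3′, minus strand) of 4 members are shown because the levels of Mup10 and Mup17 followed the other Mup genes across the livers, whereas for Mup3 and Mup21 that relation did not pass its test. Whether the relations differed from each other was not tested, and Mup21 had only 13 to 59 counts a library. Mup10 is from chr4:60582106-60582405, Mup17 from chr4:61595783-61596082, Mup3 from chr4:62087268-62087567 and Mup21 from chr4:62150792-62151091. Capitals mark every match, on either strand, to the letters TATATAAG (a TATA box) and ATCAAT, which do not overlap each other.
Mup10: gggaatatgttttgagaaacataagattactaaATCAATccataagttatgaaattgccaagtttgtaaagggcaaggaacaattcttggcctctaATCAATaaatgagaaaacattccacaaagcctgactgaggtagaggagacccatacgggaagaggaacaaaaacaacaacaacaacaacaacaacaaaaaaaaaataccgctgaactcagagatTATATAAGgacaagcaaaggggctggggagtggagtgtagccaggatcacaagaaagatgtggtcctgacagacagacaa
Mup17: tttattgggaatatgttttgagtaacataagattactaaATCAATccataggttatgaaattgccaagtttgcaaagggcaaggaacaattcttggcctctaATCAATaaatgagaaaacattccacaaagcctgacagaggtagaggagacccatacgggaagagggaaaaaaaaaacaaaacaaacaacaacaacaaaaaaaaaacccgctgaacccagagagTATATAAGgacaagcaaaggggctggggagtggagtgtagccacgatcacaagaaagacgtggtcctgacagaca
Mup3: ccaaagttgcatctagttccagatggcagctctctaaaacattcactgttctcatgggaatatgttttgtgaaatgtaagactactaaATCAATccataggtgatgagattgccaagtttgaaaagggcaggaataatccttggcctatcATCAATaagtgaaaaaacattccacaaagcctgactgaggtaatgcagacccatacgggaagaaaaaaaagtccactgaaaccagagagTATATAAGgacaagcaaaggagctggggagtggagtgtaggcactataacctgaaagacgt
Mup21: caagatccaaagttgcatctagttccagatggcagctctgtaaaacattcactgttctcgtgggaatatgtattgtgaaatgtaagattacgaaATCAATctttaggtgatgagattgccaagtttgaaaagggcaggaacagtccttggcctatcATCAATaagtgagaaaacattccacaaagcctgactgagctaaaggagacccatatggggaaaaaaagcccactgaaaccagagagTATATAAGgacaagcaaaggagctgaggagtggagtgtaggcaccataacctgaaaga

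ATCAAT occurred at least 2 times in the windows of all 5 members that had one (these 4 and Mup7) and of all 14 Mup genes that had one, against 0.694% of 32851 promoters. TATATAAG occurred in 4 of the 5, against 1.01% of all promoters. The member without it, Mup7, was 96.3% identical to Mup10 over 161 aligned positions. Its window ended before the stretch that holds TATATAAG in Mup10, so whether Mup7 has these letters further on was not tested. Neither TTCNNNGAA, the letters of a STAT site, nor TTGCNNAA, those of a C/EBP site, occurred in any of the 14 windows, while 8.3% and 10.8% of all promoters held them. Mup10 and Mup17 were 94.9% identical over 296 aligned positions, and Mup3 and Mup21 93.3% over 297. Across these pairs identity was lower, between 74.1% for Mup10 with Mup21 and 77.6% for Mup17 with Mup3.

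Mup transcripts took between 5.91% and 16.3% of each library. The Mup sum was 9.08%, 13.1% and 9.45% of expected counts in the WT corn oil livers and 14.3%, 16.3% and 6.79% in the WT CITCO livers. It was 16.1%, 12.7% and 5.91% in the hCAR/hPXR CITCO livers and 7.54%, 10.1% and 7.68% in the Car KO/hPXR CITCO livers. The 4 groups overlapped, and the widest spread lay within groups: the highest liver exceeded the lowest 2.85-fold in WT CITCO and 2.93-fold in hCAR/hPXR CITCO, against 1.47-fold in each of the other groups. Counting error was small beside this, as shown by 95% exact binomial intervals of 5.87% to 5.95% for the lowest library and 16.21% to 16.32% for the highest (counting error only). Replicate 3 was the lowest of its group in Mup sum and in library total in WT CITCO (1370357 counts) and in hCAR/hPXR CITCO (1167027 counts). The other groups went the other way. In WT corn oil and Car KO/hPXR CITCO, replicate 1 had the highest library total (2341572 and 1499517 counts). It also had the lowest Mup share of its group (9.08% and 7.54%). Across the 12 livers the sum and the library total had an r of 0.523 and a rho of 0.594, given as a description.

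**Figure D2:**
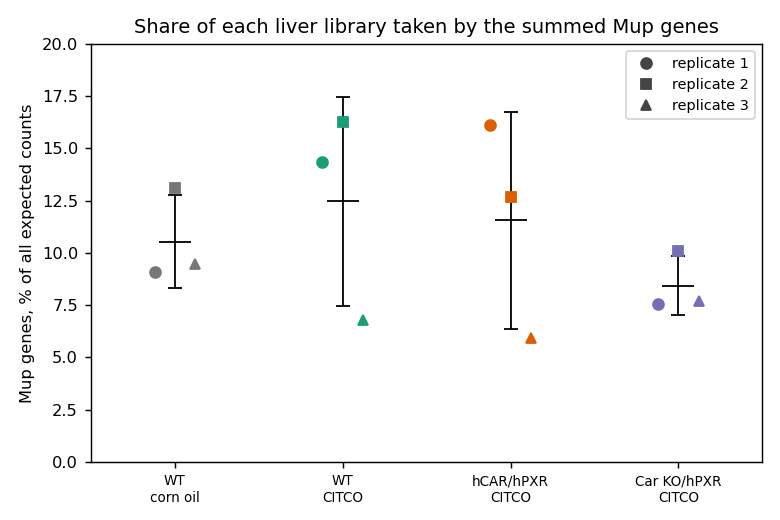
Points give the Mup sum as a percentage of all expected counts in each of 12 livers, by group and replicate, with bars at the mean ± SD (n = 3). The Car KO/hPXR CITCO livers sit between 7.54% and 10.1%, inside the range of 6.79% to 16.3% of the WT CITCO livers.

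Members made up 50.6% to 64.2% of the Mup sum, in shares of counts that were not divided by length because the kit reads 3′ ends. Mup7 was the most abundant, at 22.1% to 32.8% of the sum. Mup20 took 7.05% to 22.4%, Mup3 5.69% to 15.3%, Mup17 1.95% to 4.78% and Mup10 1.68% to 2.72%. Mup21 stood far below, at 0.0118% to 0.0507%, or 13 to 59 counts a library. Of 36 comparisons of a member's share between groups of 3 livers, 2 reached 0.1, the smallest p that an exact two-sided permutation test allows here, and both had an adjusted p of 1: Mup10 in hCAR/hPXR CITCO (2.12% ± 0.209) against WT corn oil (2.39% ± 0.206), and Mup21 in Car KO/hPXR CITCO (0.0138% ± 0.00319) against WT corn oil (0.0206% ± 0.00393; SD, n = 3).

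One Mup gene of the cluster was outside the sum by its symbol. The gene that GENCODE calls Mup22 was listed under a clone name, and was looked at after its values were seen. It held 7332 to 29530 expected counts in 9 livers and 0 in 3, namely WT corn oil replicate 2 and hCAR/hPXR CITCO replicates 1 and 2. None of the windows at its 3′ end was its own, and its closest relative was Mup14 at 99.3% identity, so that its zeros cannot be told apart from reads given to other Mup genes. Mup15 was the reverse, with 279 and 113 counts in Car KO/hPXR CITCO replicates 1 and 2 and 0 in the other 10 livers, again with no window of its own. Mup13, also without one, ran from 129 to 35381 counts. With Mup22 added, the sum took 6.86% to 17.6% of each library and the highest liver exceeded the lowest 2.55-fold in WT CITCO and 2.52-fold in hCAR/hPXR CITCO.

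The first question was whether the Mup genes differed between mice with human and with mouse receptors given the same drug. The Mup sum was 117350 ± 55907 CPM in hCAR/hPXR CITCO and 132850 ± 61706 CPM in WT CITCO (SD, n = 3), a log2 fold change of −0.18 ± 0.355 (SE; 95% interval −0.92 to 0.57), with an adjusted p of 0.921 by edgeR's quasi-likelihood test. No member was called, where a call needed an adjusted p under 0.05 and a fold change over 1.5, against 0.407% of all 8594 genes tested, and 0 members had an unadjusted p under 0.05. Mup3 was at 9954, 7880 and 6453 CPM in hCAR/hPXR CITCO and at 10200, 10600 and 10020 CPM in WT CITCO. These livers did not overlap, although the gap was narrow and 13.6% of all genes were as well separated, and the log2 fold change of −0.34 ± 0.217 did not pass the test (adjusted p = 0.702). The other members had log2 fold changes from −0.31 (Mup10) to 0.14 (Mup21), each smaller than its own SE, with adjusted p from 0.855 to 0.967. Of the 19 Mup genes 14 had negative log2 fold changes, with a median of −0.157, and larger differences lay outside the members. Mup19 was at 9428, 8080 and 3536 CPM in hCAR/hPXR CITCO and at 12620, 14330 and 6041 CPM in WT CITCO, which overlapped at WT CITCO replicate 3, with a log2 fold change of −0.65 ± 0.319 (adjusted p = 0.586). Mup9 differed by −1.13 ± 0.593 (adjusted p = 0.62) and Mup11 by −0.54 ± 0.401 (0.751).

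The second question was whether Mup genes differed under CITCO between mice without Car and wild-type mice. These groups also differed in PXR, human in the former and mouse in the latter. The loss of Car and the change of PXR therefore cannot be told apart here. The Mup sum was 83809 ± 18925 CPM in Car KO/hPXR CITCO against 132850 ± 61706 in WT CITCO, a log2 fold change of −0.66 ± 0.356 (95% interval −1.41 to 0.08, adjusted p = 0.599), which did not pass the test. All 6 members and all 19 Mup genes had negative log2 fold changes, with medians of −0.63 and −0.90, while the median over all genes was −0.00395. No member was called, against 0.256% of all genes. Since most of these genes shared reads, the 19 values are not independent, and 2 members and 10 of the 19 genes had an unadjusted p under 0.05, against 9.3% of all genes.

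Mup21 was the member nearest to the threshold. It was at 8.26, 12.5 and 13.1 CPM in the Car KO/hPXR CITCO livers and at 27.2, 25.6 and 26.7 CPM in WT CITCO. In hCAR/hPXR CITCO it was at 24.4, 34.1 and 29.2 CPM, and in WT corn oil at 17.0, 33.8 and 17.5 CPM. All 3 Car KO/hPXR CITCO livers, with 13 to 16 counts, lay below all 9 others, which had 29 to 59 counts. Against WT CITCO the log2 fold change was −1.24 ± 0.317 (adjusted p = 0.114, a separation shared by 14.2% of all genes), and hCAR/hPXR CITCO exceeded Car KO/hPXR CITCO by 1.38 ± 0.313 (adjusted p = 0.0542, with 15.1% of all genes as well separated). In the second of these DESeq2's Wald test gave an adjusted p of 0.026, and edgeR gave 0.0488 or 0.0299 when replicate 1 or replicate 2 of WT corn oil was left out and 0.049 when replicate 3 of WT CITCO was, so that the call depended on the tool and on these livers. With a stricter filter on low counts it was 0.0476, and 7 of 22 alternatives in all made the call. These 7 include the edgeR fit without a filter (adjusted p = 0.00354), in which no gene kept its own spread. The 22 include the Mup sum put in place of Mup21. Against WT corn oil the 95% interval of the log2 fold change ran from −1.67 to −0.33 (adjusted p = 0.637), where 11.6% of all genes were as well separated. Over the 4 groups together Mup21 had an adjusted p of 0.0991, while 1.42% of all genes passed that test.

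Mup17 had the largest log2 fold change of the 6 members in this comparison but a wider error, at 1624, 2303 and 1832 CPM in Car KO/hPXR CITCO against 6028, 7794 and 1276 CPM in WT CITCO (log2 fold change −1.39 ± 0.543, adjusted p = 0.402). WT CITCO replicate 3 lay below all the Car KO/hPXR CITCO livers, so that the groups overlapped. Mup10 differed by −0.71 ± 0.356 (adjusted p = 0.556), Mup7 by −0.56 ± 0.431 (0.734), Mup20 by −0.31 ± 0.326 (0.838) and Mup3 by −0.12 ± 0.217 (0.908), each value in log2 with its SE and adjusted p. Among the other Mup genes Mup9, with 56.7% of its windows its own, was at 39.4, 25.1 and 33.7 CPM against 251, 641.7 and 42.2 CPM. Its log2 fold change was −3.24 ± 0.682 with an adjusted p of 0.0529 by edgeR and 0.0119 by DESeq2's Wald test, so its call depended on the tool. It also depended on settings within edgeR, with an adjusted p of 0.0383 when library totals alone set the scale and 0.0357 when only the groups compared entered the fit. By edgeR it was −3.76 (adjusted p = 0.00128) without WT CITCO replicate 3, and −3.24 (adjusted p = 0.0307) without hCAR/hPXR CITCO replicate 3.

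The Mup genes beyond the members were led by Mup14, which took 13.9% to 21.7% of the sum, Mup11 with 5.07% to 10.9% and Mup19 with 5.61% to 9.23%. Mup11, with 63.7% of its windows its own, was at 4165 to 5360 CPM in Car KO/hPXR CITCO, 5018 to 20230 CPM in WT CITCO and 6516 to 11630 CPM in WT corn oil. Its groups under CITCO overlapped only at WT CITCO replicate 3, and the log2 fold change of −1.45 ± 0.409 did not pass the test (adjusted p = 0.172), although it was −1.84 with an adjusted p of 0.0167 by edgeR when that liver was left out. Mup19 differed by −0.90 ± 0.321 (adjusted p = 0.334), Mup16 by −0.67 ± 0.306 (0.508) and Mup14 by −0.37 ± 0.38 (0.829) in the same comparison. Against WT corn oil the Car KO/hPXR CITCO livers lay below without overlap for Mup21, Mup11, Mup19, Mup16 and Mup9, which are 5 of 19 Mup genes that share reads, against 11.6% of all genes, with adjusted p of 0.637 or more. Mup9 was called there (adjusted p = 0.0249 by edgeR) when only these groups entered the fit.

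**Figure D3:**
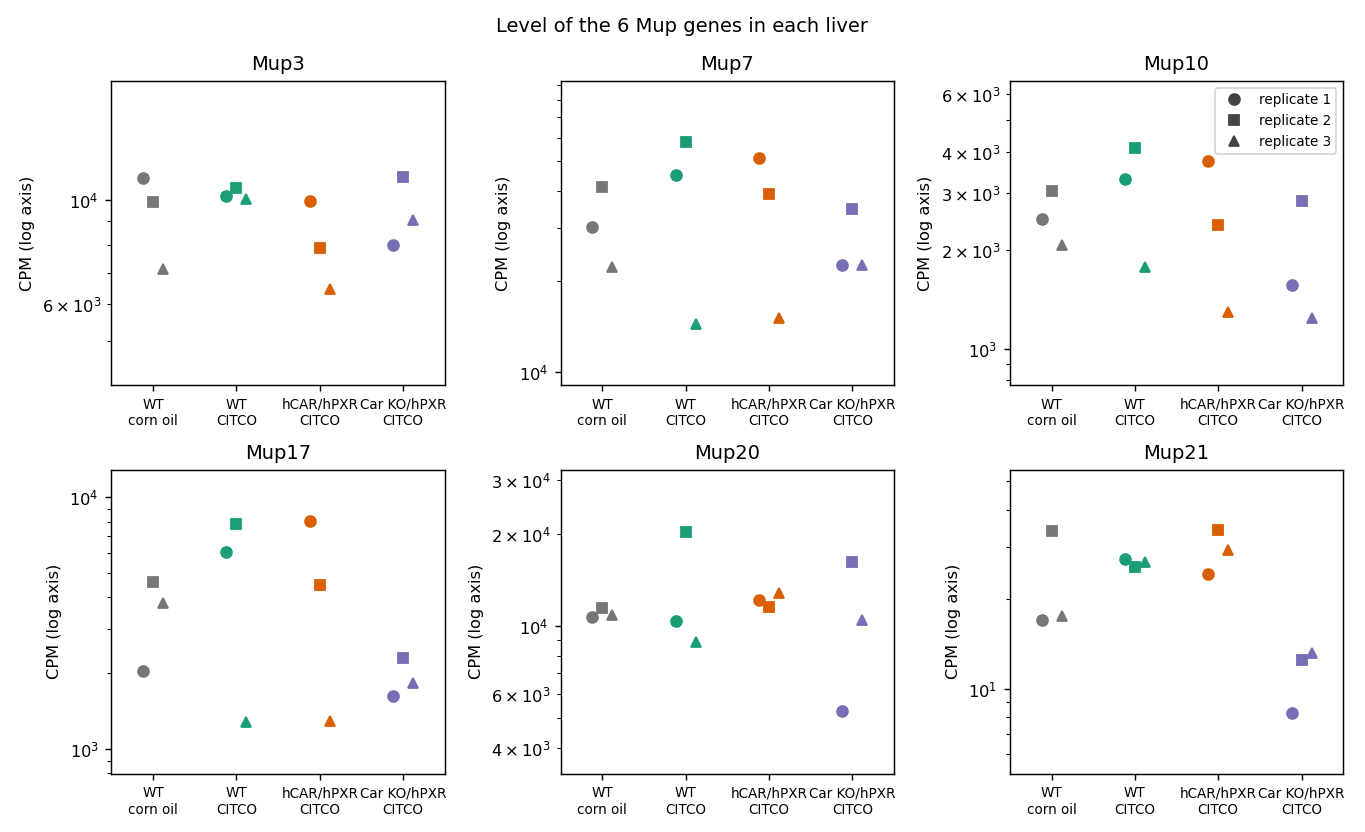
Each panel plots 1 member in CPM on a log axis for the 12 livers, by group (n = 3), with the replicate shown by the shape of the point. Mup21 in Car KO/hPXR CITCO lies at 8.26 to 13.1 CPM, below every other liver, whereas Mup7, Mup10 and Mup17 show low points for replicate 3 of WT CITCO and hCAR/hPXR CITCO.

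Mice with human CAR and mice without Car, which shared human PXR and CITCO, were compared next. The Mup sum was higher by 0.49 ± 0.356 in log2 in hCAR/hPXR CITCO, a difference within the spread of the livers (95% interval −0.26 to 1.23, adjusted p = 0.699). No member was called, against 0.582% of all genes. Of the 19 Mup genes 16 had positive and 3 negative log2 fold changes, with a median of 0.473 against 0.0133 over all genes. An unadjusted p under 0.05 was found for 2 members and 8 of the 19 genes, most of which shared reads, against 10.6% of all genes. The largest differences lay outside the members, at 2.995 ± 1.06 for Mup13 (adjusted p = 0.281) and 2.109 ± 0.677 for Mup9 (0.226). Mup17, at 8028, 4495 and 1287 CPM in hCAR/hPXR CITCO, differed by 1.26 ± 0.541 (adjusted p = 0.413), Mup7 by 0.40 ± 0.43, Mup10 by 0.40 ± 0.355 and Mup20 by 0.20 ± 0.326, while Mup3 differed by −0.22 ± 0.217 (adjusted p between 0.77 and 0.886 for these 4).

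CITCO itself was compared with the vehicle in wild-type mice. The Mup sum was 132850 ± 61706 CPM with CITCO and 106930 ± 23666 CPM with corn oil, a log2 fold change of 0.31 ± 0.355 (95% interval −0.43 to 1.06, adjusted p = 0.845). No member was called, against 0.233% of all genes, and no member separated the groups, against 14.7% of all genes. The 6 members had log2 fold changes between 0.13 (Mup3) and 0.53 (Mup17), with adjusted p from 0.821 to 0.908. Against WT corn oil, where genotype and drug both differed, the sum changed by 0.13 ± 0.355 in hCAR/hPXR CITCO (adjusted p = 0.946) and −0.35 ± 0.355 in Car KO/hPXR CITCO (adjusted p = 0.975), and no member was called in either, against 0.989% and 0.0465% of all genes. Mup20 alone separated the former 2 groups, at 11490 to 12850 CPM against 10650 to 11400 CPM, where 16.2% of all genes did. The test over all 4 groups gave F = 1.22 for the Mup sum, with an adjusted p of 0.749.

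**Figure D4:**
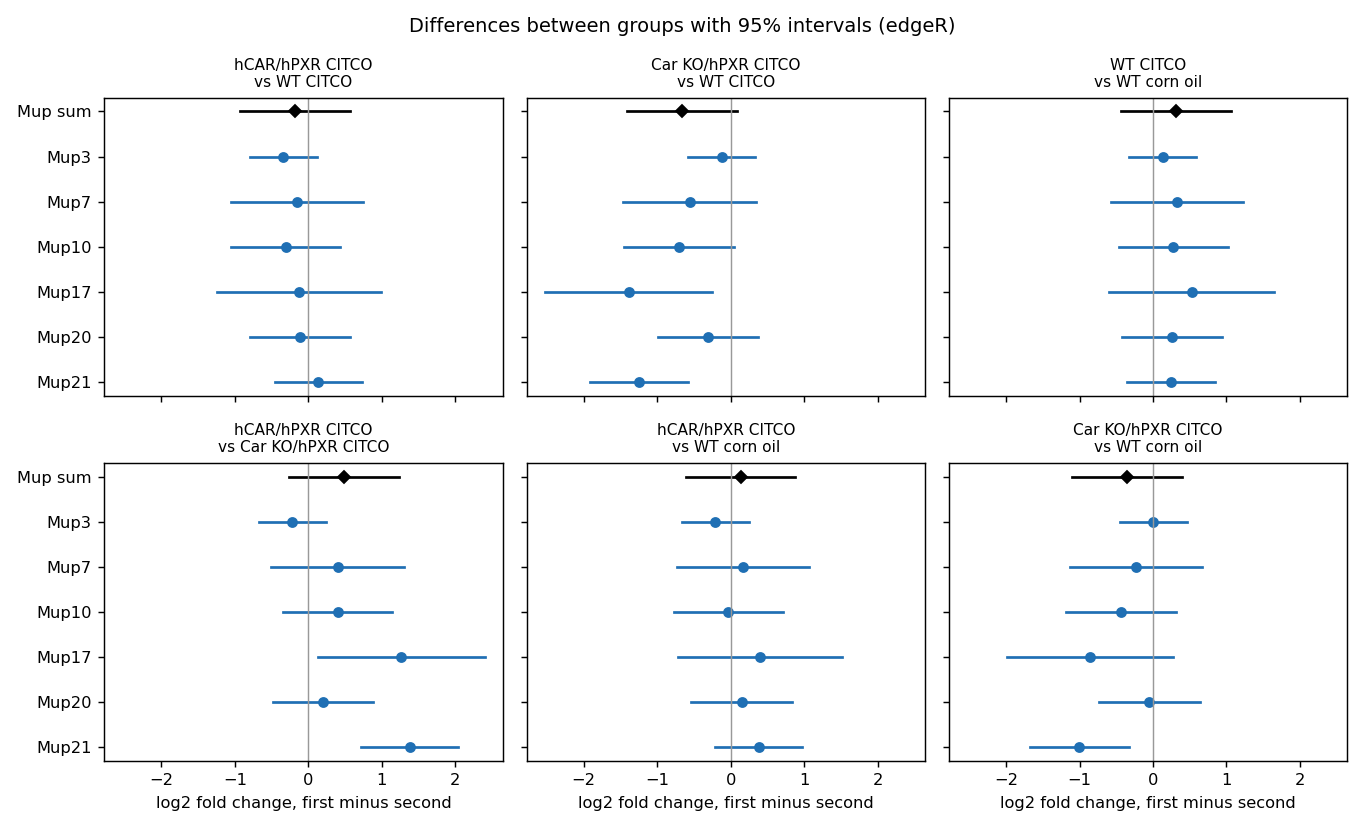
Points give the edgeR log2 fold change of the Mup sum and the 6 members in each of 6 comparisons (first group minus second, n = 3 each) with 95% intervals as lines. The interval of the Mup sum crosses 0 in every panel, and those of Mup21 lie away from 0 in the 3 panels with Car KO/hPXR CITCO, from −1.91 to −0.58 against WT CITCO, as do those of Mup17 in 2 of these panels.

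The spread of each member between mice of 1 group, and its relation to the other Mup genes, were described next. Whether the spreads or the relations differed between members was not tested. The SD of log2 CPM within groups was 1.03 for Mup17, 0.763 for Mup7, 0.6 for Mup10, 0.519 for Mup20 and 0.26 for Mup3, while the median over 1252 genes above 100 CPM was 0.203. The first 4 of these exceeded at least 96.1% of those genes, and Mup3 exceeded 74.4%. Mup21, too low for that comparison, had an SD of 0.334. Across the 12 livers Mup7, Mup10 and Mup17 followed the sum of all other Mup genes, with Pearson r of 0.944, 0.936 and 0.953 and Spearman rho of 0.916, 0.93 and 0.965 (adjusted permutation p = 6e-05 for each r, 6 relations tested). Without the 2 livers farthest from the median r was 0.912, 0.896 and 0.934. Mup3, Mup20 and Mup21 gave r of 0.473, 0.438 and 0.384 and rho of 0.406, 0.42 and 0.224, with adjusted permutation p of 0.178, 0.184 and 0.217, which did not pass. Deviations from the group means gave 0.975, 0.936 and 0.952 for Mup7, Mup10 and Mup17, so the relation was as strong within groups. For Mup3, Mup20 and Mup21 they gave 0.568, 0.377 and 0.181, and without the 2 farthest livers r was 0.383, 0.46 and 0.591. Mup7 and Mup10 had few or no windows of their own and Mup17 had many, and the part of shared reads in these relations was not tested. With Mup22 added to the others, r was 0.927, 0.952 and 0.913 for Mup7, Mup10 and Mup17, and 0.558, 0.501 and 0.361 for Mup3, Mup20 and Mup21.

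**Figure D5:**
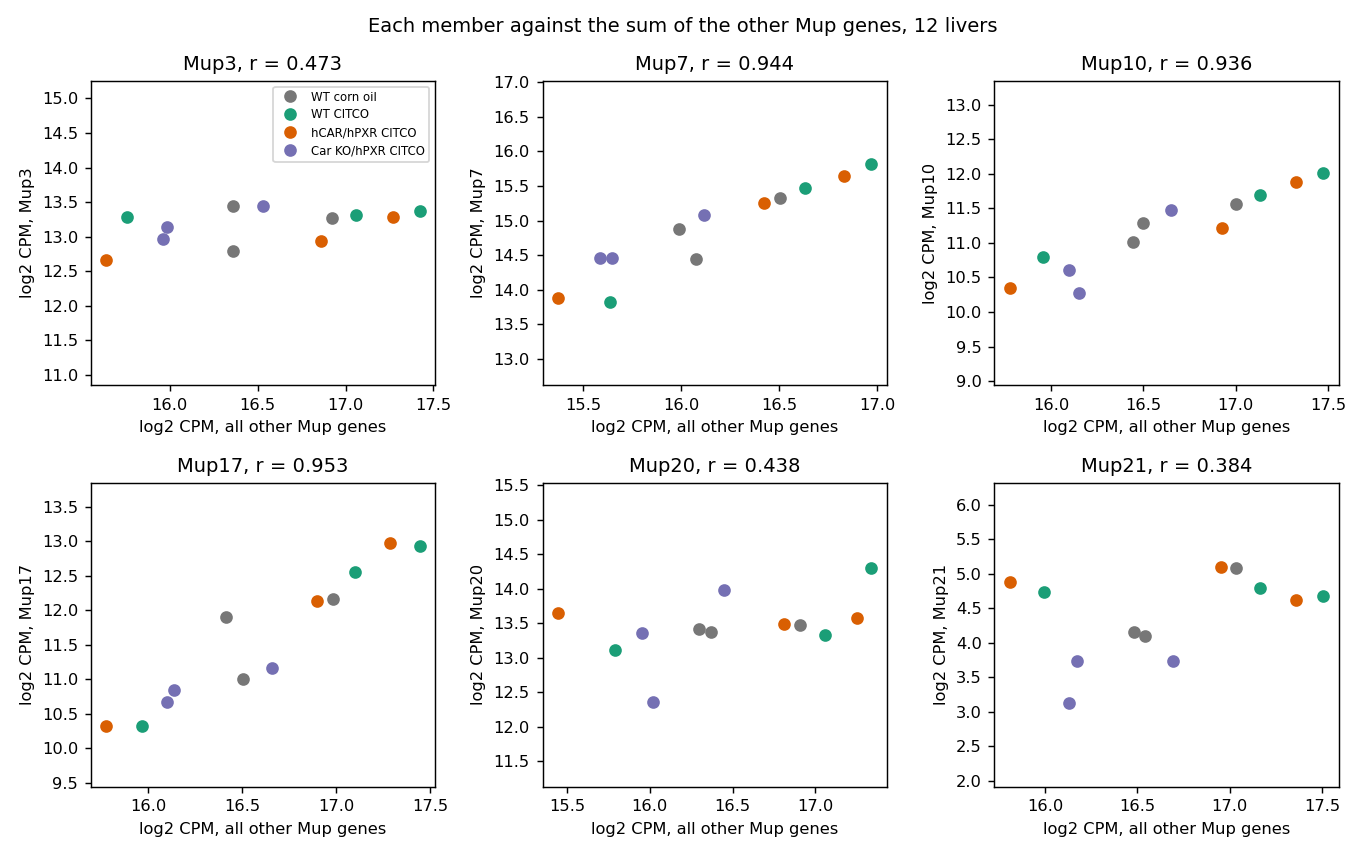
Each panel plots 1 member against the sum of the other Mup genes in 12 livers, both in log2 CPM and coloured by group, over a vertical range of equal length. Mup7, Mup10 and Mup17 rise along the other Mup genes (r = 0.944, 0.936 and 0.953). For Mup3, Mup20 and Mup21 r is 0.473, 0.438 and 0.384, and whether the relations differ was not tested.

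Of 6437 genes above 10 CPM that are no Mup gene, those whose log2 CPM was most like the Mup sum across the 12 livers were Mcur1 (r = 0.921), Otud5 (0.888), Ptcd3 (0.858), Cyp2d40 (0.842) and Cyp7b1 (0.833), and those least like it were Rala (−0.919), Snhg6 (−0.866) and Ugp2 (−0.862). Cyp7b1, a male-biased hydroxylase of oxysterols, ranged from 106 to 427 CPM. Of the hepatocyte transcripts, Alb had r of −0.581 and Ttr −0.654 on the same measure, which are descriptions over 12 libraries that share the scaling.

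A list of Mup regulators, and genes under the same male hormone pattern, were described beside the members. The first list also holds genes downstream of growth hormone or STAT5, such as Igf1 and Cish. Of the 21 genes of this list 19 were tested. In WT CITCO against WT corn oil 2 rose and 0 fell, with a median log2 fold change of −0.162 against −0.000278 over all genes. These were Cish, an inhibitor of cytokine signalling that STAT5 induces (46.5 ± 8.12 against 2.75 ± 1.94 CPM, log2 fold change 3.94 ± 0.455, adjusted p = 0.000326), and Onecut1, a hepatocyte transcription factor (116 ± 27.1 against 13 ± 9.16 CPM, 3.17 ± 0.338, adjusted p = 0.000195). In hCAR/hPXR CITCO against WT CITCO the same 2 genes fell, with log2 fold changes of −3.71 ± 0.452 for Cish and −2.04 ± 0.31 for Onecut1 (adjusted p = 0.000288 and 0.00262), and none rose. Both comparisons share the WT CITCO livers, and of all genes tested 0.233% were called in the first and 0.407% in the second. Cish was also lower in hCAR/hPXR CITCO than in Car KO/hPXR CITCO (17.3 ± 11.5 CPM), with a log2 fold change of −2.33 ± 0.488 (adjusted p = 0.0351). Cish stood at 55.8, 42.9 and 40.8 CPM in WT CITCO, where replicate 3 had the lowest Mup sum. Any relation of Cish to the Mup sum was not tested. In Car KO/hPXR CITCO against WT CITCO none of the 19 was called, against 0.256% of all genes. Igf1, the main growth hormone target of the liver, fell in hCAR/hPXR CITCO against WT corn oil by 0.867 ± 0.154 in log2 (adjusted p = 0.00721). Ghr, the growth hormone receptor, was at 443 to 782 CPM, while Stat5b and Zhx2, the latter a regulator of hepatic genes, were low, at 1.16 to 13.9 and 0.691 to 10.4 CPM.

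None of 19 tested male-biased genes was called in any of the 6 comparisons. The same held for the 7 female-biased genes that passed the filter, of 22 listed. Over all genes tested, 0.0465% to 0.989% were called in these comparisons. In Car KO/hPXR CITCO against WT CITCO 14 male-biased genes had negative and 5 positive log2 fold changes (median −0.216, against −0.00395 over all genes). Serpina1e, a male-biased protease inhibitor, was at 3590, 5130 and 4670 CPM against 9990, 10600 and 5690 CPM and did not pass the test (−0.97 ± 0.242, adjusted p = 0.114), and Cyp7b1 differed by −1.07 ± 0.327 (adjusted p = 0.216). Hsd3b5, Cyp4a12a, Elovl3 and Slco1a1 had log2 fold changes between −0.403 and 0.255 there, with adjusted p of 0.763 or more. C6 (−1.01 ± 0.242, adjusted p = 0.0964), Ugt2b38 (−3.21 ± 0.837, 0.123) and Selenbp2 (−1.21 ± 0.416, 0.301), named after their values were seen, had larger differences and were not called either.

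Other lipocalins and acute phase genes were called where no Mup gene was. Of 8 lipocalins tested, 4 rose in hCAR/hPXR CITCO against WT corn oil (Lcn2, Orm1, Orm2 and Apom, the last by 0.971 ± 0.212 in log2, adjusted p = 0.0303), and 0 fell, while Orm2 also rose against Car KO/hPXR CITCO (3.02 ± 0.657, adjusted p = 0.0412). Of 20 acute phase genes, 14 rose in hCAR/hPXR CITCO against WT corn oil. In the same mice 4 rose against WT CITCO (Mt1, Mt2, Saa4 and Serpina3m) and 7 rose against Car KO/hPXR CITCO. Saa1 and Saa2 rose in WT CITCO against WT corn oil, and 0 were called in Car KO/hPXR CITCO against WT CITCO. Of all genes tested, 0.989%, 0.407%, 0.582%, 0.233% and 0.256% were called in these comparisons, in the order given. Haptoglobin (Hp) was at 6130, 3180 and 3150 CPM in hCAR/hPXR CITCO and at 1400, 1510 and 1460 CPM in WT corn oil. The summed neutrophil markers were at 33.6 to 49.2 CPM in hCAR/hPXR CITCO and at 2.81 to 10.9 CPM elsewhere, and their part in any Mup value was not tested. S100a8 rose in hCAR/hPXR CITCO against WT CITCO, Car KO/hPXR CITCO and WT corn oil (adjusted p = 0.00961, 0.0242 and 0.00144), and S100a9 against WT corn oil (0.0387). Of 9 Kupffer cell markers 8 were higher and 1 lower in hCAR/hPXR CITCO against WT corn oil, and only Marco was called, as higher. All 5 red blood cell markers were lower there, and only Alas2 was called. None of 8 endothelial and 6 stellate markers tested was called in any comparison, while only 1 of 5 cholangiocyte markers and 0 of 6 lymphocyte markers passed the filter on low counts, so these lists were not tested as such. Of 8 hepatocyte markers 2 were higher and 6 lower in hCAR/hPXR CITCO than in WT corn oil. Only Fgb was called, and it was higher (0.845 ± 0.19 in log2, adjusted p = 0.0381). Against WT CITCO 3 were higher and 5 lower, with none called. The summed hepatocyte markers, of which Alb was the largest, had a lowest value of 27000, a median of 27010 and a highest of 42120 CPM in hCAR/hPXR CITCO. Thus 2 of its 3 livers lay below all livers of the other groups, which were at 31550 to 39800 CPM. The part of this in any Mup value was not tested, and with bulk tissue fewer cells of a type and less RNA per cell cannot be told apart.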

How the data were processed

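Liver RNA of 12 male mice was sequenced with a 3′ mRNA kit (Lexogen QuantSeq for Ion Torrent). Per the labels, the authors trimmed reads with Trimmomatic 36, aligned them to GRCm38 with STAR 2.5.2 and estimated expected counts per gene with RSEM 1.3. They deposited these expected counts without normalization, and log2 values from the DESeq2 variance-stabilising transformation, whose symbols named the genes. Libraries held 1167027 to 2341572 counts.

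Expected counts were rounded and tested in R 4.3.3 with edgeR 4.0.16 (filterByExpr, TMM, quasi-likelihood, all 12 libraries, 1 mean per group, Benjamini-Hochberg over all genes tested). limma 3.58.1 and DESeq2 1.42.0 served as alternatives. CPM use the TMM scaling. In the relations across livers 0.5 counts were added before the logarithm, with 100000 permutations. Scripts were tested on simulated data.

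The members, the gene lists and the rule for named genes (all members, other Mup genes with a mean of at least 10 counts, called or defining genes of the lists, and the 5 genes most like and 3 least like the Mup sum) were chosen with earlier results of these data known. The lists are textbook sets. Gene positions and 3′ ends are from GENCODE M21, which may differ from the authors' Ensembl release, and promoters from RefSeq GRCm38.p6.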

Additional observations from a re-analysis of the deposited data

How the results depend on the processing

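The Mup sum was not called under any alternative in any of the 6 comparisons, nor in the test over the 4 groups, where the adjusted p ran from 0.21 to 1. Its direction changed only when 1 library was left out, which gave log2 fold changes of −0.53 to 0.145 for hCAR/hPXR CITCO against WT CITCO (0.134 if WT CITCO replicate 2 and 0.145 if hCAR/hPXR CITCO replicate 3 was dropped), −0.00384 to 0.641 for WT CITCO against WT corn oil (−0.00384 without WT CITCO replicate 2) and −0.216 to 0.461 for hCAR/hPXR CITCO against WT corn oil (−0.216 without hCAR/hPXR CITCO replicate 1). The other comparisons kept their direction, at −0.993 to −0.346 for Car KO/hPXR CITCO against WT CITCO (lowest adjusted p 0.07), 0.136 to 0.812 for hCAR/hPXR CITCO minus Car KO/hPXR CITCO and −0.552 to −0.151 for Car KO/hPXR CITCO against WT corn oil. Adding Mup22 or Mup pseudogenes to the sum, chosen after seeing the data, changed no call.

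No call was made for single Mup genes over the 6 comparisons in the reported test, with RLE size factors, library totals without Mup genes or limma on transformed values. There was 1 with library totals alone, 1 with a stricter filter, 2 with DESeq2 and 2 with only the groups compared. Leaving out a library gave 0 to 6, with 6 without WT CITCO replicate 3 and 3 without Car KO/hPXR CITCO replicate 3, the latter all of Mup15. The others were of Mup21, Mup9, Mup11 and Mup15. Without a filter on low counts 35 were made, but the prior degrees of freedom were then infinite (10.1 in the reported test), so no gene kept its own spread. DESeq2 gave Mup21 no adjusted p for hCAR/hPXR CITCO or Car KO/hPXR CITCO against WT CITCO.

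Leaving out libraries, only these members' log2 fold changes spanned 0 in these comparisons. For hCAR/hPXR CITCO against WT CITCO they ran from −0.557 to 0.216 for Mup7, −0.814 to 0.314 for Mup17, −0.334 to 0.325 for Mup20 and −6.6e-05 to 0.247 for Mup21, with −0.179 for the sum in place of Mup21. For Car KO/hPXR CITCO against WT CITCO Mup20 ran from −0.743 to 0.136. For WT CITCO against WT corn oil they ran from −0.0351 to 0.275 for Mup3, −0.0534 to 0.724 for Mup7 and −0.182 to 0.48 for Mup20. For hCAR/hPXR CITCO minus Car KO/hPXR CITCO they ran from −0.0412 to 0.817 for Mup10 and −0.13 to 0.627 for Mup20, with 0.486 for the sum in place of Mup3.

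Same-numbered livers deviated with r of −0.0568 to 0.075 over 18 pairs (median 0.0288, other pairs −0.01). As 9 of 12 correlated best with their own number, pairing was undecided. With the replicate block the sum had log2 fold changes of −0.159 for hCAR/hPXR CITCO and −0.551 for Car KO/hPXR CITCO against WT CITCO and 0.206 for WT CITCO against WT corn oil, none called, and 2 single Mup genes were, Mup21 (adjusted p = 0.0446) and Mup9 (0.0433). Calls over all genes in the reported test, with DESeq2 and unfiltered were 35, 63 and 184 for hCAR/hPXR CITCO and 22, 69 and 227 for Car KO/hPXR CITCO against WT CITCO, and 20, 42 and 179 for WT CITCO against WT corn oil. They were 50, 96 and 233 for hCAR/hPXR CITCO minus Car KO/hPXR CITCO, and 85, 127 and 261 for hCAR/hPXR CITCO and 4, 10 and 95 for Car KO/hPXR CITCO against WT corn oil. Only the groups compared gave 40 for Car KO/hPXR CITCO against WT CITCO, and limma gave 13 for WT CITCO against WT corn oil. Leaving out a library gave, in the same order of comparisons, 17 to 36, 5 to 58, 6 to 54, 10 to 86, 25 to 99 and 3 to 6 calls, the 58, 54, 86 and 99 without WT CITCO replicate 3.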
